A study of Mus musculus with 18 samples.

Results

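Wild-type preMegE cells were compared with wild-type hematopoietic stem cells (HSCs), using 6 of the 18 RNA-sequencing libraries of the series: 3 labelled preMegE wt and 3 labelled HSC wt. The libraries were chosen by those labels alone. Both were sorted from bone marrow. The preMegE gate took CD150+ c-kit+ cells that lacked lineage markers (Lin-), Sca-1, CD41, CD105 and FcgRII/III; the HSC gate took CD150+ CD48- cells that were Lin- and carried both c-kit and Sca-1. Both groups were from C57BL/6 mice that carried Ptbp1 fl/fl, a loxP-flanked gene for an RNA-binding splicing regulator, with no knockout. The remaining libraries were of preCFU-E cells and of Ptbp1 knockout cells. The design text calls the replicates biological, but no label says that they came from separate animals, so the p-values measure the spread between these libraries.

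Hematopoietic stem cells renew themselves and give rise to all blood lineages, and most of them divide rarely in adult marrow. PreMegE cells are bipotent progenitors of megakaryocytes, which shed platelets, and of red cells; preCFU-E cells lie further along the red cell path. The transcription factors HLF and MECOM are known for maintaining stem cells, whereas KLF1 activates red cell genes together with GATA1, a factor that binds the sequence WGATAR.

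The 3 preMegE libraries held 25097404, 24858139 and 20048930 estimated reads, and the 3 HSC libraries 19383461, 17299096 and 15956408. Mitochondrial ribosomal RNA took 14.2% to 23.6% of the preMegE reads and 25.2% to 30.7% of the HSC reads. The 1720 autosomal olfactory and vomeronasal receptor genes, whose known expression is in sensory neurons, held 425 to 573 raw CPM (depth-scaled read counts) in preMegE libraries and 1570 to 1850 raw CPM in HSC libraries; these are called background reads here. Xist stood at 0.504 to 0.862 raw CPM in preMegE libraries and 9139 to 9544 in HSC libraries, so that the sex of the mice and the population cannot be told apart; only autosomal genes are described. The replicate spread was smaller in preMegE than in HSC libraries, with a common biological coefficient of variation of 0.178 in preMegE and 0.377 in HSC. In bulk samples, fewer cells of a type and less RNA per cell cannot be told apart.

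The markers followed the labels. Hlf stood at 28.1, 34.3 and 32.6 CPM in preMegE libraries, against 723, 714 and 727 CPM in HSC libraries. Mecom stood at 9.66, 14.4 and 9.91 CPM in preMegE, against 212, 214 and 217 CPM in HSC. Klf1 stood at 72.1, 70.0 and 78.7 CPM in preMegE, against 1.57, 0.331 and 1.13 CPM in HSC. None of these genes overlapped between the groups, which was also so for 68.7% of all genes tested. The log2 fold changes of preMegE over HSC were -4.51 for Hlf (SE 0.119, adjusted p = 5.51e-10), -4.24 for Mecom (SE 0.171, adjusted p = 1.29e-08) and 6.15 for Klf1 (SE 0.346, adjusted p = 1.13e-07) in edgeR's quasi-likelihood test. Both stem cell regulators therefore remained detectable in preMegE libraries at a small share of their HSC level.

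Further markers moved with them. Procr, the surface protein C receptor by which stem cells are often sorted, averaged 0.125 ± 0.0692 CPM in preMegE and 44.6 ± 8.64 CPM in HSC (SD, n = 3 each). Fgd5, a stem cell reporter gene, averaged 0.646 ± 0.323 CPM in preMegE and 47.4 ± 5.68 CPM in HSC. On the other side, Car1, a carbonic anhydrase of red cells, stood at 1130, 1140 and 1140 CPM in preMegE, against 2.96, 1.87 and 21.3 CPM in HSC. HSC library 3 was the highest of its group for Car1, and the groups lay far apart. Epor, the erythropoietin receptor, averaged 29.4 ± 2.23 CPM in preMegE and 7.72 ± 0.561 CPM in HSC, and Gfi1b, a repressor needed by both lineages, 125 ± 40.4 CPM in preMegE and 29.9 ± 9.58 CPM in HSC. Pf4, the platelet chemokine, went the other way, at 7.93, 6.54 and 4.93 CPM in preMegE against 26.4, 8.05 and 45.6 CPM in HSC (log2 fold change -2.04, adjusted p = 0.00694); its call was lost without the filter on low counts (adjusted p = 0.0583).

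**Figure D1:**
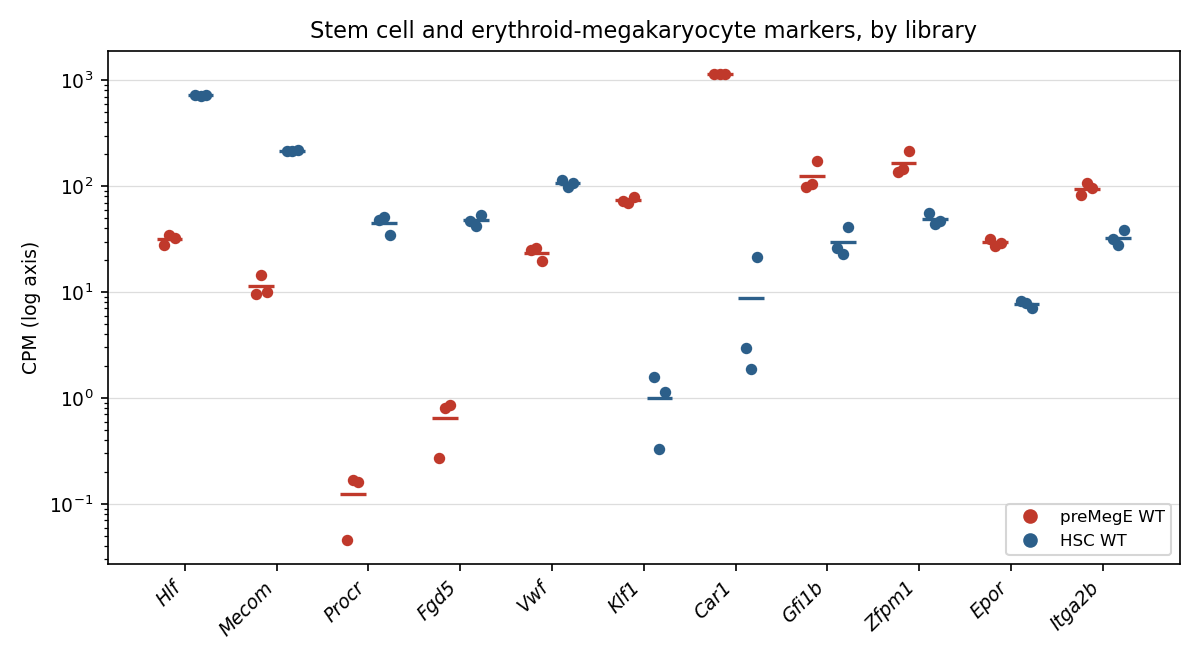
Levels in CPM on a log axis of 5 markers of stem cells (left) and 6 of the erythroid and megakaryocyte lineages (right), 1 point per library and a bar at the mean of 3, with preMegE WT in red left of HSC WT in blue. The lineage marker Pf4, which was higher in HSC, is not drawn. No marker drawn overlaps between the groups, which is also so for 68.7% of all genes tested. Hlf averages 31.6 CPM in preMegE and 721 CPM in HSC, and Klf1 73.6 CPM in preMegE and 1.01 CPM in HSC.

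The genes of the sort are set by the gates and are given as a check. Ly6a, which encodes Sca-1, averaged 2.5 ± 1.04 CPM in preMegE and 37.3 ± 8.7 CPM in HSC. Cd48, absent by gate from the stem cells, averaged 75.7 ± 13.3 CPM in preMegE and 0.348 ± 0.32 CPM in HSC. Kit averaged 929 ± 52.1 CPM in preMegE and 559 ± 17.7 CPM in HSC, although both gates were c-kit+; its log2 fold change of 0.73 turned to -0.04 with length-scaled counts, and its call was lost with scaling from abundant genes (adjusted p = 0.0754). Itga2b and Eng, whose proteins the preMegE gate excluded, had more RNA in preMegE: Itga2b, for CD41, averaged 94.6 ± 12.4 CPM in preMegE and 32.6 ± 5.59 CPM in HSC, and Eng, for CD105, 111 ± 15.1 CPM in preMegE and 76.3 ± 12.9 CPM in HSC. The rise of Eng was lost with scaling from abundant genes (adjusted p = 0.952) and that of Itga2b with length-scaled counts (adjusted p = 0.451). Fcgr3 had 29 reads over the preMegE libraries and 1 over the HSC libraries, too few to test, and Fcgr2b averaged 6.8 ± 0.551 CPM in preMegE and 1.26 ± 0.469 CPM in HSC.

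Promoters of 3 genes that rose and of Hlf and Mecom, which fell, are printed to show a motif among those searched near the starts of genes. They are the 300 bases from 250 before to 50 after the RefSeq start in the GRCm38.p6 table; capitals mark AGATAA or TGATAA, the forms of the GATA-factor motif that were searched, on either strand (so TTATCT or TTATCA on the printed strand).
Klf1 (chr8:84901732-84902031, plus strand): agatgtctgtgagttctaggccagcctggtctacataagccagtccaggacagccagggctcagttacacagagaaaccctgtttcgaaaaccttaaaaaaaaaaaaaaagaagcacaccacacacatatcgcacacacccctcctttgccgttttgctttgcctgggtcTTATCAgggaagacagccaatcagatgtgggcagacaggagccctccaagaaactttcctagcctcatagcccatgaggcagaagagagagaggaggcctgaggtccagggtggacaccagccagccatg
Pdzph1 (chr17:58991326-58991625, minus strand): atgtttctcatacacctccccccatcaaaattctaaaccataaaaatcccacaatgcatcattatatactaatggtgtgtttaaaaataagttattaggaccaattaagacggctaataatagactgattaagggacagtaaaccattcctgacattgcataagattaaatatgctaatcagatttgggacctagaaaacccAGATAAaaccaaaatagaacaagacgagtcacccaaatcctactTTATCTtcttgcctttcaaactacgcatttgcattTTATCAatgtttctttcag
Siglecf (chr7:43351091-43351390, plus strand): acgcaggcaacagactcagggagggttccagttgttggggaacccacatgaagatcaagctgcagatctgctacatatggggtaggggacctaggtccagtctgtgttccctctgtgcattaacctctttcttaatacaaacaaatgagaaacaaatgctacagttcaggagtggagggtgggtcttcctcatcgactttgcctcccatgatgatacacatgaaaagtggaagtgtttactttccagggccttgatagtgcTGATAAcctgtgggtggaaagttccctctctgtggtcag
Hlf (chr11:90390868-90391167, minus strand): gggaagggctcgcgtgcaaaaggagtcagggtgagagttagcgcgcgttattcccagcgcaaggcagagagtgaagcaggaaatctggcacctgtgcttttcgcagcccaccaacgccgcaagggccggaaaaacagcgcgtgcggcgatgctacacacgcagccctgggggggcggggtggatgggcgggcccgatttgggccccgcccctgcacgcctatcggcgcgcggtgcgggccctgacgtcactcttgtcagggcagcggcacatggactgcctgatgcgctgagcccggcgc
Mecom (chr3:30509710-30510009, minus strand): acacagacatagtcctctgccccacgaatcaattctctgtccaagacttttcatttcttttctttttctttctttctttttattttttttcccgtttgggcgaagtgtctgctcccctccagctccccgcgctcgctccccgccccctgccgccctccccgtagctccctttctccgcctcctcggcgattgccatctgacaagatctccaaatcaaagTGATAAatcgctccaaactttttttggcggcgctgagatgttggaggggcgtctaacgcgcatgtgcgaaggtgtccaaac
Pdzph1 carried 3 copies, Klf1, Siglecf and Mecom 1 each, and Hlf none. The start in the table for Mecom lies 38249 bases from the GENCODE gene start. Of the 12 protein-coding genes with the largest rises, which are described below, 10 had a promoter in the table and 5 of these held a motif. Among those 5, the starts used for Mylk3 and Dnah12 lie 5304 and 1720 bases from the GENCODE gene start. Of the 12 with the largest falls, 9 had a promoter and 0 held a motif. Over all genes at 20 CPM or more in the higher group and called at least 8-fold higher, a limit chosen after values were seen, AGATAA stood in 10 of 52 promoters (19.2%), against 3 of 72 (4.17%) of those called at least 8-fold lower. Among all 10193 tested protein-coding genes with a promoter the share was 7.08%, and among those at 20 CPM or more 5.69%. TGATAA stood in 11.5% of the 52 rising promoters, in 8.33% of the 72 falling ones and in 4.99% of all. The rising promoters were also poorer in CpG, with a median of 9 CpG each against 16 in the falling ones and 20 in all. Genes called at least 2-fold higher had AGATAA in 6.11% of 1490 promoters, close to the share of all. A match is a run of letters, and binding was not measured.

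Across the genome, 18083 autosomal genes could be tested. Of these, 61.6% were called at an adjusted p below 0.05 (edgeR), 5126 (28.3%) higher and 6011 (33.2%) lower in preMegE, and 2682 (14.8%) and 5405 (29.9%) were called with a change of at least 2-fold up and down; the median log2 fold change was -0.25. The 3 libraries of each group did not overlap for 68.7% of genes. This balance depended on the scaling. With factors taken from abundant protein-coding genes alone, an alternative added after the data were seen, all log2 values moved by -0.53, and 2603 genes were higher and 8727 lower, so that 23% of calls were higher in place of 46.0%. Directions of gene groups below are given with this in view, and each group whose median changed sign is named as such.

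The falls were concentrated among genes of low level. Protein-coding genes under 1 CPM had a median log2 fold change of -1.39, those from 1 to 10 CPM -0.82, those from 10 to 100 CPM 0.48 and those above 100 CPM 0.74. Of 13047 protein-coding genes 4966 were higher and 3211 lower, whereas of 1126 lincRNA genes 33 were higher and 642 lower, with a median of -1.44. Antisense genes (25 higher and 462 lower of 854) and processed pseudogenes (49 higher and 218 lower of 490) also fell more often than they rose. The sensory receptor genes moved in the same way: of 455 tested, 309 were lower (67.9%) and 4 higher, with a median log2 fold change of -1.71 and median levels of 0.603 CPM in preMegE and 2.01 CPM in HSC. In HSC libraries 95% of them lay under 10.1 CPM. Of the 5405 genes at least 2-fold lower, 1132 stood above that level in HSC, 814 of them protein-coding. The part of these background reads in the falls of weakly expressed genes was not tested. The filter keeps a gene with enough reads in either group, and 455 of the 1720 receptor genes passed it. Weak genes of every class could pass through HSC alone, and for these only a fall could be seen.

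**Figure D2:**
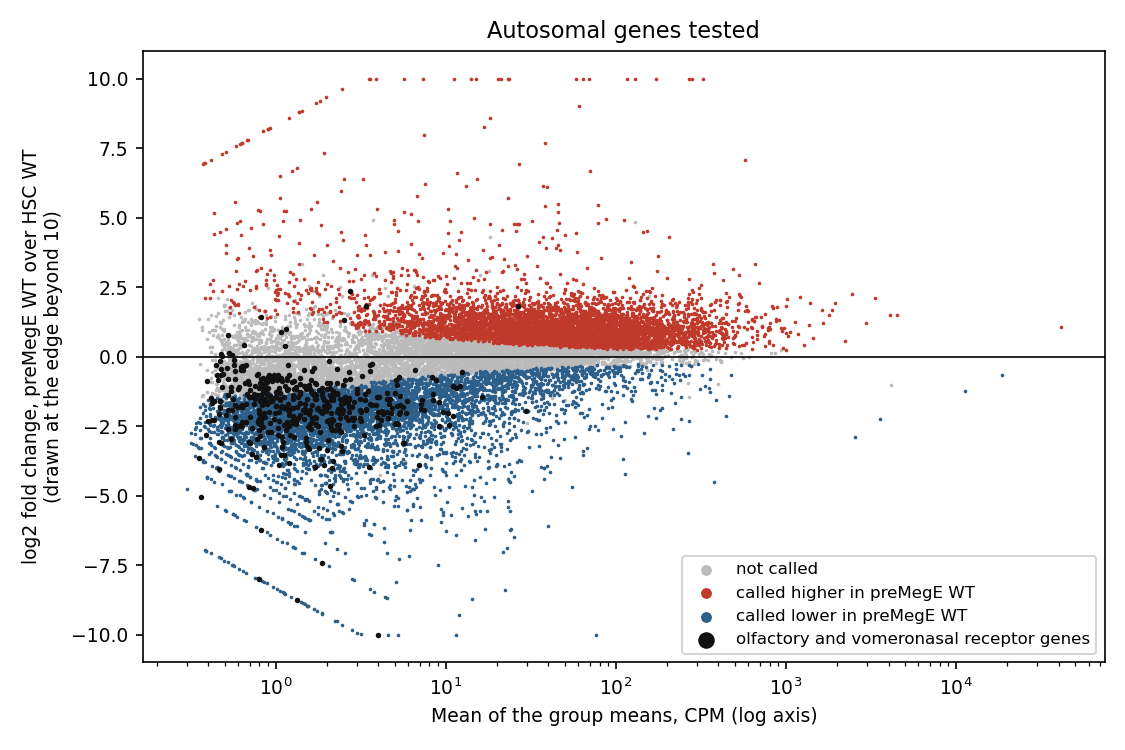
Each point is 1 of 18083 autosomal genes, with the mean of both groups in CPM on a log axis and the log2 fold change of preMegE WT over HSC WT; red and blue mark genes called higher and lower in preMegE, and black the 455 sensory receptor genes tested, with values beyond 10 drawn at the edge. The receptor genes sit at low levels around a median of -1.71, and protein-coding genes above 100 CPM around a median of 0.74.

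The 12 largest rises among protein-coding genes included Klf1 and Car1. Pdzph1 had 44.0, 61.2 and 34.3 CPM in preMegE and no read in any HSC library, which makes it at least 907-fold higher against a limit of 3 reads over the HSC group. Slc45a3, a solute carrier, stood at 44.9, 41.3 and 54.1 CPM in preMegE, against 1 read over the HSC libraries, a ratio of 2650 with a 95% counting interval from 475 to 105000. St8sia6, an enzyme that adds sialic acid to glycoproteins, stood at 293, 299 and 186 CPM in preMegE, against 0.0449, 0.496 and 0.178 CPM in HSC. These genes were close to silent in the stem cell libraries, below the median level of the sensory receptor genes there. Cst7, a cystatin that inhibits lysosomal proteases, averaged 36.0 ± 5.68 CPM in preMegE and 0.0885 ± 0.116 CPM in HSC. Siglecf, a sialic acid receptor known from eosinophils, averaged 29.9 ± 2.98 CPM in preMegE and 0.361 ± 0.202 CPM in HSC. Atp1b2, a sodium-potassium pump subunit, averaged 139 ± 25.7 CPM in preMegE and 1.41 ± 0.992 CPM in HSC. The remaining members of the 12 were Klf1, Car1, Cd48, the kinesin Kif26b, the dynein heavy chain Dnah12 and the myosin kinase Mylk3, with log2 fold changes from 6.15 to 8.25.

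The 12 largest falls included hormone receptors. Pgr, the progesterone receptor, stood at 0.0456, 0.127 and 0.0 CPM in preMegE, against 17.0, 39.6 and 29.1 CPM in HSC. Lhcgr, the luteinizing hormone receptor, averaged 0.525 ± 0.272 CPM in preMegE and 49.4 ± 2.25 CPM in HSC. Clec1a, a C-type lectin, averaged 0.314 ± 0.179 CPM in preMegE and 42.8 ± 13.4 CPM in HSC. The rule that named these genes required libraries that do not overlap between the groups, which was so for 68.7% of all genes tested. Clip3, a microtubule linker protein, had no read in preMegE and 19.5, 19 and 29.9 CPM in HSC, at least 480-fold lower in preMegE. The transporter Abcg3 (log2 fold change -6.89), the copine Cpne8 (-6.40), the interferon-induced GTPase Gbp4 (-6.24), the membrane repair protein Myof (-6.09) and the netrin receptor Neo1 (-5.72) fell beside Procr and Fgd5. Rpl10-ps3 had no read in preMegE and 173, 150 and 136 CPM in HSC; it is annotated as protein-coding but is named as a pseudogene of Rpl10, with which it can share reads, so its value is uncertain. All 24 of these genes kept their call and direction under every setting run.

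**Figure D3:**
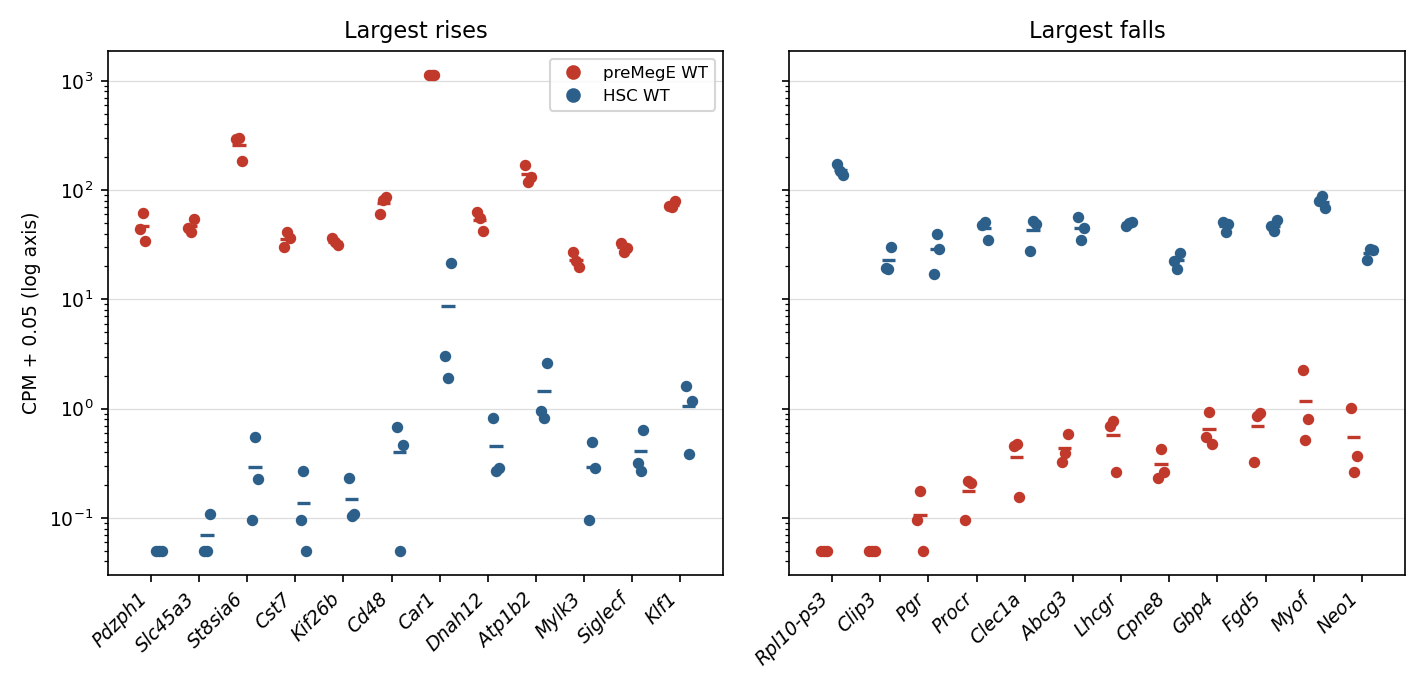
CPM plus 0.05 on a log axis of the 12 protein-coding genes with the largest rise (left) and the 12 with the largest fall (right), among called genes of at least 20 CPM in the higher group whose libraries do not overlap; preMegE WT in red left of HSC WT in blue, 1 point per library and a bar at the mean. Pdzph1 in HSC and Rpl10-ps3 and Clip3 in preMegE sit at the bottom because they had no read there.

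Among noncoding genes, 1700006J14Rik stood at 63.1, 55.1 and 68.1 CPM in preMegE, against 1.75, 1.32 and 3.38 CPM in HSC (log2 fold change 4.86), and Gm17590 averaged 38.9 ± 2.59 CPM in preMegE and 4.58 ± 0.962 CPM in HSC. Gm19590 fell, with 6.75, 5.9 and 6.26 CPM in preMegE against 81.3, 73.4 and 74.9 CPM in HSC, as did Gm13881 (-5.43), Gm26822 (-4.43) and Gm44226 (-3.48). Gm15915 varied widely within preMegE: its preMegE libraries held 231, 132 and 1.82 CPM and its HSC libraries 0.0449, 0.0 and 0.711 CPM, and the adjusted p of 0.0351 went up to 0.619 with weights for library quality and to 0.0871 to 0.105 without preMegE library 2 or any 1 HSC library. Gm26870, at 158, 54.2 and 56.5 CPM in preMegE and 8.13, 0.606 and 0.415 CPM in HSC, lost its call in the same way (adjusted p = 0.0769 in place of 0.0263). The reads were not stated to keep strand, so a gene and one that overlaps it on the opposite strand were not told apart.

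Lineage transcription factors changed in a mixed way. Of 32 HSC transcription factors tested, 18 fell (56.2%) and 8 rose (25.0%), with a median log2 fold change of -0.84. Over all genes tested 33.2% fell and 28.3% rose. Beside Hlf and Mecom, Nkx2-3 averaged 0.285 ± 0.248 CPM in preMegE and 10.2 ± 3.7 CPM in HSC, and Tcf15, whose protein is associated with quiescent stem cells, 0.145 ± 0.065 CPM in preMegE and 4.95 ± 1.59 CPM in HSC; both HSC levels lie near or within the range of the sensory receptor genes. Gfi1, a repressor needed for stem cell quiescence, had no read in preMegE and 2.65, 5.57 and 0.652 CPM in HSC. These HSC levels also lie within the range of the sensory receptor genes, whose median there was 2.01 CPM. Members of the same list that rose were Gfi1b, Ikzf1 (640 ± 48.3 CPM in preMegE and 176 ± 15.2 CPM in HSC) and Hhex (147 ± 10.9 CPM in preMegE and 43.8 ± 5.78 CPM in HSC).

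Of 27 erythroid and megakaryocyte transcription factors 19 rose (70.4%) and 3 fell (11.1%), against 28.3% and 33.2% of all genes tested. The median was 0.93, and 16 rose and 8 fell with abundant-gene scaling. Trib2, a pseudokinase, stood at 207, 191 and 251 CPM in preMegE, against 4.04, 4.96 and 12.7 CPM in HSC (log2 fold change 4.92, SE 0.436, adjusted p = 7.59e-05). Myb, a regulator of progenitor growth, stood at 1180, 1220 and 1500 CPM in preMegE, against 396, 369 and 386 CPM in HSC. Mafk, a partner of NF-E2 in platelet and globin gene control, averaged 34.7 ± 1.36 CPM in preMegE and 6.85 ± 0.604 CPM in HSC. None of these 3 overlapped between the groups, which was also so for 68.7% of all genes tested. The falls were of Lyl1 (-0.99), Cited2 (-0.81) and Nfia (-0.64), of which Nfia reversed to 0.34 and Cited2 lost its call (adjusted p = 0.392) with length-scaled counts.

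Every Hox gene that could be tested fell. Hox genes encode homeobox factors that are active in stem and early progenitor cells. All 17 of 24 that passed the filter were lower in preMegE, with a median log2 fold change of -2.60 and no overlap between libraries. Of all genes tested 33.2% were lower and 68.7% did not overlap. The filter keeps a gene with enough reads in either group. Members with few or no reads in preMegE therefore passed through HSC, and for these only a fall could be seen. The remaining 7 had at most 22 reads over the preMegE libraries and at most 120 over the HSC libraries. Hoxa9, the member with the most reads, stood at 13, 11 and 11 CPM in preMegE, against 33.6, 29.8 and 40.5 CPM in HSC. Hoxb6 and Hoxb8 had no read in preMegE, against 327 and 171 reads over the HSC libraries, and were at least 122-fold and at least 63.9-fold lower. The summed level of the list was 31.1 to 36.5 CPM in preMegE and 149.5 to 188.3 CPM in HSC, and 7 of the 17 stood above 10.1 CPM in HSC. The part of background reads for the other 10 was not tested.

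Of 41 surface and niche receptors of stem cells tested, 23 fell (56.1%) and 15 rose (36.6%), with a median of -0.69. Over all genes tested 33.2% fell and 28.3% rose. Ifngr1, the ligand-binding chain of the interferon gamma receptor, stood at 348, 341 and 293 CPM in preMegE, against 20.5, 26.1 and 33.4 CPM in HSC (log2 fold change 3.62, SE 0.175, adjusted p = 4.41e-08). Itga4, an integrin of marrow adhesion, averaged 1120 ± 204 CPM in preMegE and 384 ± 8.47 CPM in HSC, and Il10rb 26.2 ± 4.94 CPM in preMegE and 8.07 ± 1.19 CPM in HSC. Of 37 genes of an HSC signature, 25 fell and 5 rose (median -1.26), with Gda at 1.08 ± 0.325 CPM in preMegE and 45.3 ± 4.29 CPM in HSC. Members that rose against the list included the lipid carrier Apoe, at 260, 289 and 381 CPM in preMegE against 34.9, 34.9 and 40.7 CPM in HSC, and the cation transporter Slc22a3, at 471 ± 51.3 CPM in preMegE and 68.3 ± 0.857 CPM in HSC. Angpt1, a ligand of the TEK receptor, was alike in both groups within its spread (474 ± 22.1 CPM in preMegE and 475 ± 33.0 CPM in HSC). Of 23 imprinted genes 14 fell and 3 rose (median -1.15), Ndn from the first set with a log2 fold change of -4.84 and Gnas from the second with 1.27. These medians kept their sign under every scaling. Ndn averaged 7.42 CPM in HSC when scaled over the 9 wild-type libraries, a level within the range of the sensory receptor genes.

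Several signalling lists had a larger share of lower genes than all genes tested, of which 28.3% rose and 33.2% fell. In the TGF-beta and BMP list 33.3% rose and 44.4% fell. For growth factor and cytokine receptors the shares were 29.5% and 47.7%, and for Notch and Wnt genes 22.6% and 51.6%. Of 44 growth factor and cytokine receptors 21 fell and 13 rose (median -0.54). The largest rise was that of Il1rl1, the interleukin 33 receptor, at 75.4, 57.5 and 97.8 CPM in preMegE against 1.12, 0.992 and 1.25 CPM in HSC (log2 fold change 6.10, SE 0.266, adjusted p = 2.2e-08). Csf3r, the granulocyte colony-stimulating factor receptor, fell, with 6.47 ± 0.845 CPM in preMegE and 40.4 ± 7.78 CPM in HSC. Of 31 Notch and Wnt genes 16 fell and 7 rose (median -1.04); the Wnt antagonist Sfrp1 averaged 0.0944 ± 0.0114 CPM in preMegE and 17.8 ± 5.32 CPM in HSC, while Ctnnb1, for beta-catenin, averaged 385 ± 62.6 CPM in preMegE and 166 ± 27.4 CPM in HSC. Of 27 TGF-beta and BMP genes 12 fell and 9 rose (median -0.34), Bmpr1a with -5.39 and Tgfbr3 with 1.45. In the erythropoietin receptor and JAK-STAT list 14 of 32 rose and 9 fell, and its median of 0.21 changed sign with abundant-gene scaling and with length-scaled counts. Stat5b rose with Epor (1.49), and the negative regulator Socs2 fell, at 1.78 ± 1.33 CPM in preMegE and 22.6 ± 5.69 CPM in HSC, as did the kinase Pim1 at 19.5 ± 3.65 CPM in preMegE and 119 ± 12.2 CPM in HSC.

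Red cell machinery rose as a group, apart from globins. Of 24 heme synthesis genes 18 rose (75.0%) and 1 fell (4.17%), with a median of 1.24. Over all genes tested 28.3% rose and 33.2% fell. Alad, the enzyme of the second step, stood at 27.9, 35.3 and 39.7 CPM in preMegE, against 2.61, 2.81 and 3.26 CPM in HSC. Tspo2, a membrane protein of the erythroid lineage, stood at 23.1, 20.3 and 16.6 CPM in preMegE against 0.809, 0.276 and 0.356 CPM in HSC, and Glrx5, for iron-sulfur cluster assembly, 38.3 ± 3.92 CPM in preMegE and 4.67 ± 1.26 CPM in HSC. The 1 fall was that of Ppox, the penultimate enzyme of the pathway, with 8.93, 8.28 and 7.55 CPM in preMegE and 30.5, 14.9 and 13.4 CPM in HSC. It reversed to a log2 fold change of 1.79 when transcripts annotated as retaining introns were left out of the counts. Of 19 iron genes 14 rose and 2 fell (median 0.97), with the ferrireductase Steap3 at 73.6, 83.7 and 131 CPM in preMegE against 3.23, 5.84 and 5.04 CPM in HSC. Of 40 erythroid membrane and surface genes 29 rose and 6 fell (median 1.17). The medians of these 3 lists stayed above 0 with abundant-gene scaling, at 0.71, 0.44 and 0.64.

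The globins and some late red cell genes were higher in HSC libraries, as were 33.2% of all genes tested. All 4 globin genes tested fell (median -2.66), Hbb-bt with 4.79, 3.82 and 2.09 CPM in preMegE against 16.3, 19.3 and 21.8 CPM in HSC; globin copies are near identical, so the division of reads among them is uncertain, and Hbb-bs lost its call under 7 alternatives, among them leaving out HSC library 2 or 3 (adjusted p = 0.0697 and 0.0676). Slc4a1, the band 3 anion exchanger, stood at 0.593, 0.255 and 0.107 CPM in preMegE, against 1.71, 5.73 and 19.8 CPM in HSC, and the scavenger receptor Cd36 at 0.456, 0.127 and 0.161 CPM in preMegE, against 1.35, 3.97 and 10.6 CPM in HSC. HSC library 3 was the highest for Hbb-bt, Slc4a1, Cd36 and Car1. The summed globin level was 4.07 to 16.4 CPM in preMegE and 35.9 to 71.2 CPM in HSC. The part of background reads in these values was not tested.

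Megakaryocyte and platelet genes did not move one way. Of 42 tested, 18 fell and 14 rose, and the median of -0.07 changed sign with RLE and DESeq2 size factors. The thrombin receptor F2r stood at 687, 813 and 717 CPM in preMegE, against 115, 103 and 112 CPM in HSC (log2 fold change 2.75, SE 0.11, adjusted p = 1.2e-08). The platelet glycoprotein gene Gp5 (23.5 ± 1.36 CPM in preMegE and 4.48 ± 1.07 CPM in HSC) and the ADP receptor P2ry1 (71.6 ± 11.2 CPM in preMegE and 18.1 ± 4.25 CPM in HSC) rose with it. Mmrn1, a carrier of factor V in platelets, stood at 15.1, 18.1 and 14.9 CPM in preMegE, against 187, 215 and 210 CPM in HSC. Selp, the adhesion receptor P-selectin (log2 fold change -3.94), Trpc6, a calcium channel (-3.76), and Vwf, the platelet adhesion factor (-2.19), were likewise higher in HSC. The shares of the list that rose and fell were 33.3% and 42.9%, against 28.3% and 33.2% of all genes tested.

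Most S phase genes rose. Of 52 tested, 45 rose (86.5%) and 0 fell, against 28.3% and 33.2% of all genes tested. The median was 1.06, and 32 rose and 0 fell with abundant-gene scaling. The replicative helicase subunit Mcm2 stood at 206, 288 and 340 CPM in preMegE, against 52.6, 67.7 and 65.3 CPM in HSC, and the flap nuclease Fen1 at 20.6, 31.3 and 39.2 CPM in preMegE, against 6.29, 4.96 and 6.4 CPM in HSC. Of 59 G2 and M phase genes 42 rose and 1 fell, with a median of 0.68; with abundant-gene scaling 21 rose and 4 fell, with a median of 0.15. Of 47 replication-dependent histone genes, whose near-identical copies share reads, 14 rose and 8 fell, and the median of -0.07 changed sign with RLE and DESeq2 size factors and with length-scaled counts. Plk1, a mitotic kinase, averaged 32.6 ± 0.434 CPM in preMegE and 10.7 ± 4.02 CPM in HSC. Mki67, the Ki-67 proliferation marker, was higher by less, at 960, 1010 and 895 CPM in preMegE against 754, 706 and 674 CPM in HSC, and abundant-gene scaling turned its log2 fold change from 0.43 into -0.10. In the G1 list Cdk6, a kinase that promotes stem cell exit from quiescence, stood at 5840, 5600 and 4910 CPM in preMegE, against 1290, 1150 and 1320 CPM in HSC, and Myc averaged 426 ± 15.6 CPM in preMegE and 147 ± 13.3 CPM in HSC. Ccnd1, for cyclin D1, fell, with 22.4 ± 3.37 CPM in preMegE and 58.9 ± 21.1 CPM in HSC. The CDK inhibitors differed in direction. Cdkn1c, for p57, averaged 1.14 ± 0.239 CPM in preMegE and 6.41 ± 2.81 CPM in HSC. That HSC level lies within the range of the sensory receptor genes, so this fall is uncertain. Cdkn1a, for p21, averaged 12.4 ± 2.14 CPM in preMegE and 3.41 ± 2.28 CPM in HSC. The medians of the G1 and quiescence lists, 0.36 and 0.41, changed sign with abundant-gene scaling.

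Most genes of ribosomes, ribosome assembly and oxidative phosphorylation rose. Over all genes tested 28.3% rose, as did 49.6% of protein-coding genes from 10 to 100 CPM and 76.5% of those above 100 CPM. The shares for oxidative phosphorylation (74.6%) and the mitochondrial ribosome (65.7%) lay between those of these levels. Of 44 large-subunit ribosomal protein genes 42 rose and 0 fell (median 1.31), and of 33 small-subunit genes 31 rose and 0 fell (median 1.43). Rps2 stood at 826, 908 and 1050 CPM in preMegE, against 126, 124 and 118 CPM in HSC (log2 fold change 2.92, SE 0.115, adjusted p = 1.16e-08). Rpl8 stood at 474, 532 and 618 CPM in preMegE, against 87.4, 92.9 and 91.2 CPM in HSC. The summed small-subunit level was 15410 to 16510 CPM in preMegE and 4955 to 5195 CPM in HSC; ribosomal protein genes have many processed pseudogenes that can take their reads. Of 60 ribosome biogenesis genes 59 rose and 0 fell (median 1.27), led by the nucleolar proteins Nop2 (log2 fold change 2.28), Rrp9 (2.13) and Nolc1 (2.10). Of 23 tRNA synthetase genes 22 rose, of 71 oxidative phosphorylation genes 53 and of 67 mitochondrial ribosomal protein genes 44, and 0 fell in each; Atp5b, a subunit of ATP synthase, averaged 3090 ± 431 CPM in preMegE and 808 ± 47.2 CPM in HSC. All of these medians stayed above 0 with abundant-gene scaling, from 0.27 for the mitochondrial ribosome to 0.91 for the small subunit, although that scaling called 19 mitochondrial ribosomal and 37 oxidative phosphorylation genes higher, and 2 large-subunit, 1 biogenesis, 2 mitochondrial ribosomal and 3 oxidative phosphorylation genes lower. The series title names ribosomal constituents, so these lists are not independent of what was reported for these samples.

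**Figure D4:**
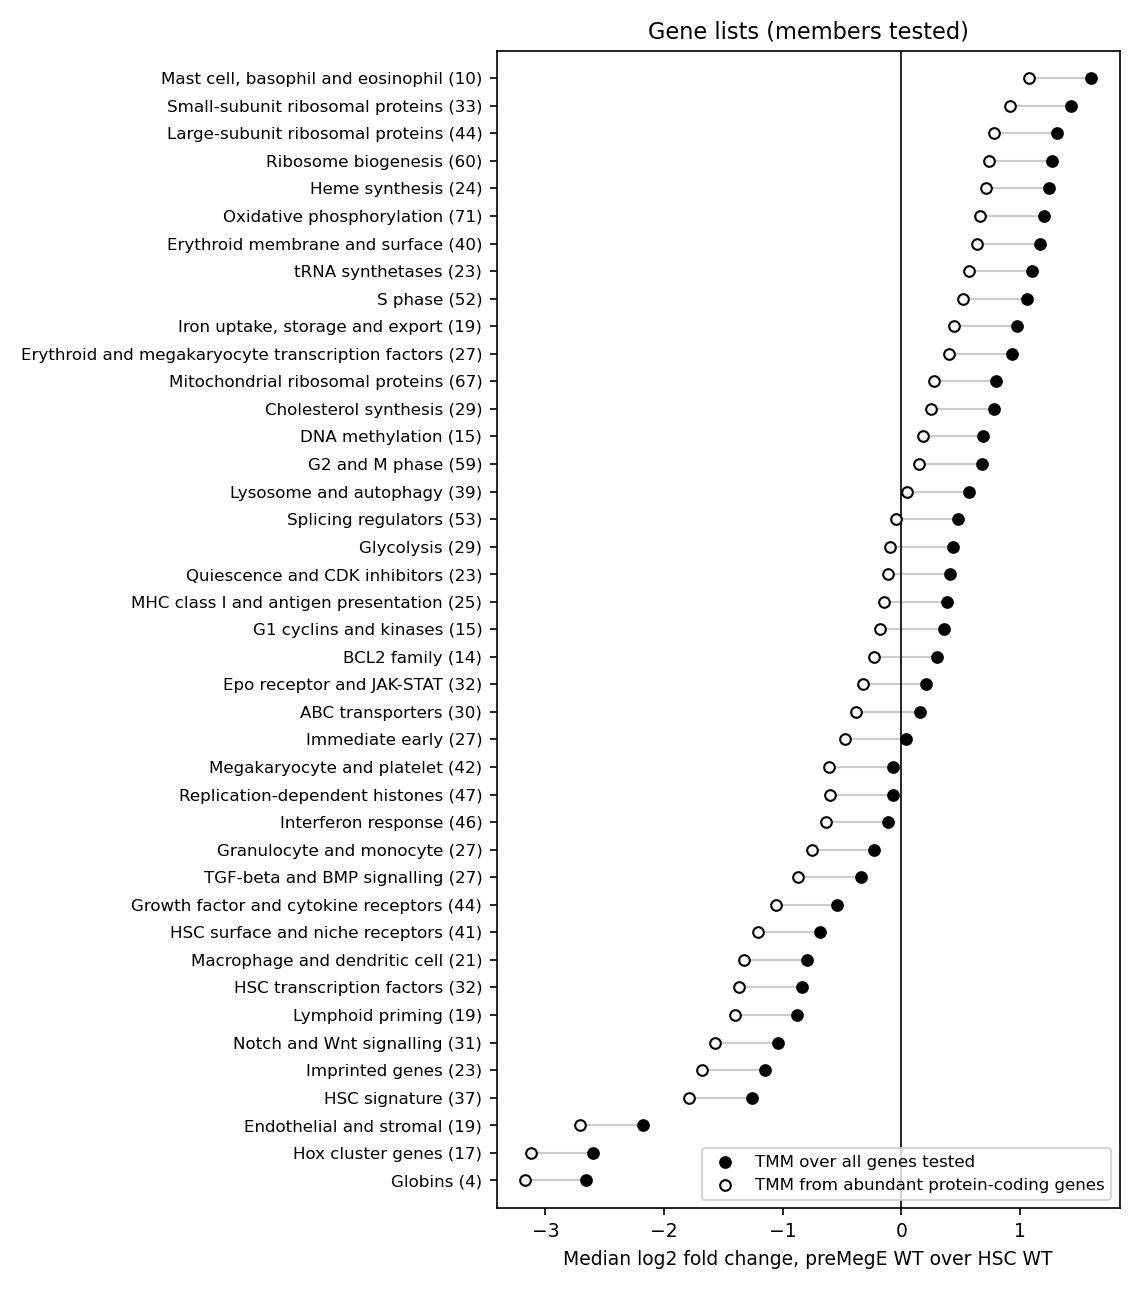
Median log2 fold change of preMegE WT over HSC WT of the 41 gene lists, with the number of members tested in brackets; filled points use TMM factors over all genes tested and open points factors from abundant protein-coding genes. The median over all genes tested is -0.25; the lists of cytoplasmic ribosomal proteins and ribosome biogenesis lie above 1 with the first scaling, and Hox genes at -2.60.

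Metabolic, immune and other lists were less uniform. Over all genes tested 28.3% rose and 33.2% fell. The interferon list lay below both shares, with 19.6% and 30.4%. Of 29 cholesterol synthesis genes 20 rose and 2 fell (median 0.78), and 8 rose and 5 fell with abundant-gene scaling (median 0.25). Of 29 glycolysis genes 14 rose and 8 fell; Eno1, for enolase, averaged 348 ± 72.2 CPM in preMegE and 82.2 ± 2.65 CPM in HSC, whereas Ldhb averaged 3.15 ± 0.374 CPM in preMegE and 25.3 ± 10.5 CPM in HSC, and the median of 0.43 changed sign with both abundant-gene scaling and length-scaled counts. In the interferon list 14 of 46 fell and 9 rose, with falls in the guanylate-binding protein genes Gbp6 (4.81 ± 2.51 CPM in preMegE and 73.7 ± 21.5 CPM in HSC), Gbp8 and Gbp9, near-identical relatives among which reads may be divided wrongly; no member stayed higher with abundant-gene scaling, and the median of -0.11 changed sign with DESeq2's size factors. Of 25 antigen presentation genes 14 rose and 4 fell, including the immunoproteasome subunit Psmb9 at 207 ± 13 CPM in preMegE and 62.9 ± 6.18 CPM in HSC, with a median of 0.38 that turned to -0.15 with abundant-gene scaling. H2-Q7 fell by 1.13 on the log2 scale but stood at 0.22 with length-scaled counts and at 1.66 without retained-intron transcripts. Of 30 ABC transporters 11 rose and 9 fell (median 0.16, -0.38 with abundant-gene scaling); Abcb1a, a drug efflux pump, averaged 0.293 ± 0.103 CPM in preMegE and 12.5 ± 7.2 CPM in HSC, and Abcb10, a mitochondrial transporter of the heme pathway, 40.7 ± 4.02 CPM in preMegE and 14.1 ± 2.23 CPM in HSC.

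Among splicing regulators the fall of Rbfox2 was the largest. Of 53 splicing regulators 31 rose (58.5%) and 9 fell (17.0%), against 28.3% and 33.2% of all genes tested. The median of 0.48 turned to -0.05 with abundant-gene scaling. Rbfox2, an RNA-binding protein that recognises GCAUG, stood at 0.775, 1.19 and 0.857 CPM in preMegE, against 26.9, 34.3 and 32.2 CPM in HSC (log2 fold change -5.03, SE 0.282, adjusted p = 1.11e-07). Nova1, a splicing factor known from neurons, stood at 0.957, 1.49 and 0.803 CPM in preMegE, against 14.9, 21.1 and 17.7 CPM in HSC. Both lay above the 10.1 CPM limit of the receptor genes in every HSC library. Ptbp1, the gene deleted elsewhere in the series, stood at 672, 806 and 895 CPM in preMegE, against 261, 243 and 231 CPM in HSC (log2 fold change 1.69, SE 0.119, adjusted p = 6.09e-07). Hnrnpab rose likewise, at 710 ± 91.1 CPM in preMegE and 182 ± 14.7 CPM in HSC.

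Markers of other blood and stromal cells were checked over whole lists, beside 28.3% of all genes tested that rose and 33.2% that fell. Of 23 mast cell, basophil and eosinophil genes 10 could be tested; 6 rose and 2 fell (median 1.6), and the summed level was 1134 to 1343 CPM in preMegE and 429.8 to 526.5 CPM in HSC. Cpa3, for mast cell carboxypeptidase, stood at 42.4, 58.9 and 49.8 CPM in preMegE, against 1.03, 1.27 and 3.38 CPM in HSC, and Ms4a2, a chain of the IgE receptor, at 6.43, 15.5 and 14.3 CPM in preMegE, against 0.629, 0.11 and 0.237 CPM in HSC. The granule genes Prg2, Epx and Prss34 and the tryptase genes Tpsb2 and Tpsab1 had 0 reads in preMegE, and Mcpt8 had 5. Of 27 granulocyte and monocyte genes 5 rose and 6 fell, and the sums overlapped (422.6 to 530.5 CPM in preMegE and 428.2 to 443.2 CPM in HSC); Mpo, myeloperoxidase, averaged 45.9 ± 10.6 CPM in preMegE and 4.76 ± 3.24 CPM in HSC, and Itgam 3.1 ± 1.19 CPM in preMegE and 36.4 ± 7.59 CPM in HSC. Of 21 macrophage and dendritic cell genes 11 fell and 4 rose, with overlapping sums (419.6 to 504 CPM in preMegE and 237.2 to 436.4 CPM in HSC); Cd74, the class II invariant chain, stood at 7.2, 4.12 and 1.5 CPM in preMegE, against 115, 57.1 and 58.4 CPM in HSC. Of 19 endothelial and stromal genes 11 fell and 5 rose (median -2.18), with sums of 299.6 to 359.8 CPM in preMegE and 354.7 to 438.4 CPM in HSC and with Cdh5 at 0 reads in preMegE and 53 in HSC. Of 19 lymphoid genes 9 fell and 3 rose, the largest rise being Nkg7, a cytotoxic granule protein, at 229, 291 and 312 CPM in preMegE against 25.2, 6.67 and 5.04 CPM in HSC; Pax5 and Dntt had 36 and 39 reads in preMegE and 0 in HSC. The lymphoid sum was 936.1 to 1109 CPM in preMegE and 360.4 to 395.7 CPM in HSC, and in preMegE most of it was Ikzf1 and Nkg7. The part of other cells in these values was not tested.

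The preCFU-E libraries place some of these changes along the red cell path. Levels here are CPM scaled over the 9 wild-type libraries, given as HSC, preMegE and preCFU-E, and are a description without a test. Klf1 averaged 0.912, 66.6 and 181 CPM and Car1 7.88, 1030 and 4990 CPM, so that both continued upward. St8sia6 averaged 0.216, 235 and 57.6 CPM, F2r 99.2, 669 and 138 CPM, Cpa3 1.71, 45.6 and 2.66 CPM, and Pdzph1 0.0, 42.1 and 3.01 CPM. For these 4 genes the level was highest in preMegE. Angpt1 averaged 429, 429 and 52.0 CPM, so that it was lower than in HSC only in preCFU-E.

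Transcript usage was then compared within genes. Reads of autosomal protein-coding genes that Salmon placed in transcripts annotated as retaining an intron made up 4.15%, 3.38% and 3.24% in preMegE libraries, against 9.86%, 9.19% and 9.87% in HSC libraries. The difference of -6.05 percentage points (-9.25 points by TPM) was larger than the spread within each group, with an exact two-sided permutation p of 0.1, the smallest that 3 against 3 allows. Of 6645 retained-intron transcripts in the usage test, the share of the gene's TPM was lower in preMegE for 84.0%, with a median change of -7.06 points. It was also lower for 68.9% of processed transcripts, which have no reading frame (median -5.55 points). For transcripts annotated for nonsense-mediated decay it was lower for 59.3% (median -2.49 points). Protein-coding transcripts had a median change of 6.13 points. Shares within a gene sum to a fixed total, so this rise is not independent of the falls. Changed usage was called for 1422 of 8089 genes (17.6%) with edgeR's diffSpliceDGE, and for 748 when retained-intron transcripts were left out. The count was 618 to 802 without 1 preMegE library, 847 with the replicate number as a block and 3261 with limma on logit shares. The part of retained-intron and background reads in the usage calls was not tested.

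Of the 8 genes named for changed usage, Bicra, given below, had the largest change of a single share. Rps24, a small-subunit ribosomal protein gene, had the highest TPM of the 8 and an exchange between protein-coding transcripts. Rps24-201 made up 90.4%, 90.7% and 89.3% of its TPM in preMegE, against 18.8%, 12.1% and 22.5% in HSC, and Rps24-202 made up 5.02%, 4.27% and 5.91% in preMegE, against 53.1%, 61.0% and 50.9% in HSC (gene adjusted p = 1.96e-06, diffSpliceDGE). The annotated transcripts share exons 2 to 4 of 66, 210 and 111 bases. They differ at the first exon, of 78 bases in Rps24-201 and 41 in Rps24-202, and at the end: Rps24-201 stops after 3 bases of exon 5, whereas Rps24-202 has the whole exon of 20 bases and a sixth of 71. That exon is printed from GENCODE M21 (GRCm38) because it holds the difference, with the stop codon in capitals.
Rps24 exon (chr14:24495430-24495449, plus strand): TGAgtggagattggatacag
Only the capitals belong to both transcripts. Because Rps24-201 ends inside the exon, the exchange rests on how reads at both ends were divided. The level of Rps24-201 was 1860, 2420 and 2280 TPM in preMegE, against 163, 88.2 and 195 TPM in HSC. Rps24-205, also protein-coding, lost share as well, with 0.1%, 0.2% and 0.3% in preMegE against 19.4%, 17.7% and 17.7% in HSC.

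Paics, an enzyme of purine synthesis, showed a like pattern: Paics-202 made up 68.1%, 66.1% and 70.5% of its TPM in preMegE, against 0.0%, 0.0% and 1.02% in HSC, and Paics-203 24.5%, 29.2% and 23.9% in preMegE, against 81.1%, 93.7% and 89.1% in HSC (adjusted p = 0.00019). Bicra-201 averaged 85.8 ± 3.82% in preMegE and 0.0 ± 0.0% in HSC, and Dnaaf5-203 64.9 ± 9.61% in preMegE and 0.0 ± 0.0% in HSC. The same rule named Ung, a uracil DNA glycosylase (Ung-203 at 1.67 ± 2.9% in preMegE and 70.4 ± 8.6% in HSC), Pycard, Rnaseh2c and Cdkn2d, with adjusted p from 0.00525 to 0.0431. Salmon divides reads that match several transcripts, and whether a share of 0% means absence was not tested.

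**Figure D5:**
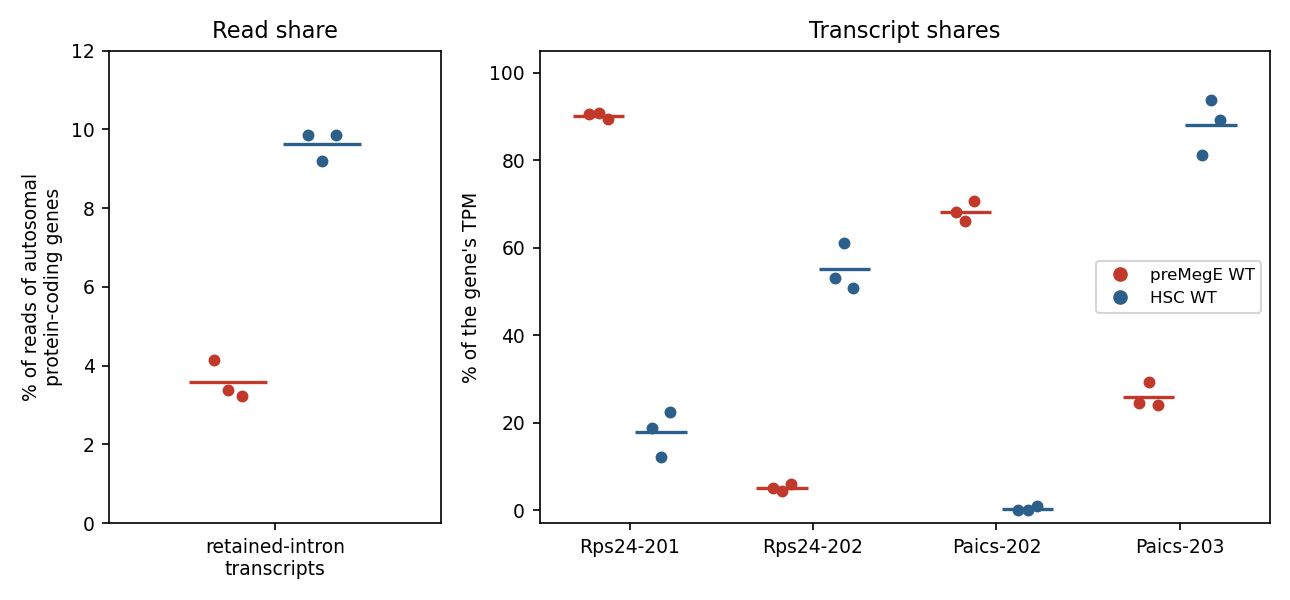
Left, percent of reads of autosomal protein-coding genes in retained-intron transcripts; right, percent of the gene's TPM held by 2 transcripts each of Rps24 and Paics; preMegE WT in red left of HSC WT in blue, 1 point per library and a bar at the mean. The read share averages 3.59% in preMegE and 9.64% in HSC, and Rps24-201 averages 90.2% in preMegE and 17.8% in HSC.

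Inclusion of cassette exons, internal exons that some annotated transcripts skip, was tested for 8027 exons of 3743 genes with limma. It was called higher in preMegE for 142 (1.77%) and lower for 196 (2.44%), with a change of at least 10 points. Of the exons higher in preMegE 78.2% were coding, against 57.7% of those lower and 64.8% of all tested. The size of these sets was not stable: 39 to 218 were higher and 64 to 249 lower when 1 library was left out, the lowest counts of each without preMegE library 3. With the replicate number as a block 0 exons were called. Exons are named from genes whose transcripts spanning the exon held at least 10 TPM on average, 1 per gene. Below that limit, 2 coding exons of Scin, an actin-severing protein, were called with a larger change than most of those named, at 97.4 ± 2.38% in preMegE and 0.0 ± 0.0% in HSC. Above it, the exons with the largest rises, those of Tulp4 (99.1 ± 0.36% in preMegE and 0.0 ± 0.0% in HSC) and Gnas (95.4 ± 0.62% in preMegE and 0.0 ± 0.0% in HSC), lie only in transcripts annotated without a reading frame.

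The 4 coding exons among the 6 largest rises above the limit of 10 TPM are printed from GENCODE M21 transcripts (GRCm38), on the strand of the gene, because their skipping is the change described.
Abcc5 (chr16:20344635-20344794, minus strand): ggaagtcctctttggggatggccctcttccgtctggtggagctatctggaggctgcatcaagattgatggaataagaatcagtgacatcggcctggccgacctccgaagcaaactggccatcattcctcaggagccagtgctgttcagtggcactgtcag
Dus4l (chr12:31648766-31648887, minus strand): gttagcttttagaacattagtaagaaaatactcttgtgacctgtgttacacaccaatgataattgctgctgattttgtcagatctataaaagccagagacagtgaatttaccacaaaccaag
C1qtnf12 (chr4:155965594-155965702, plus strand): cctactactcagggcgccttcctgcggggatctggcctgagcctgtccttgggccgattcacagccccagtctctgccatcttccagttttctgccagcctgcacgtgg
0610010K14Rik (chr11:70236877-70236978, minus strand): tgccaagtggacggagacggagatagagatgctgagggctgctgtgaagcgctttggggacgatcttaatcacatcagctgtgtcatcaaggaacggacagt
The 102-base exon of 0610010K14Rik keeps the reading frame and was included at 74.3%, 76.9% and 71.7% in preMegE, against 11.8%, 19.4% and 5.26% in HSC (adjusted p = 0.0196). It lost its call when any preMegE library was left out (adjusted p = 0.0819 to 0.104). The 160-base exon of Abcc5, an organic anion transporter, was included at 100%, 100% and 100% in preMegE, against 27.7%, 11.9% and 9.7% in HSC (adjusted p = 0.00325), and the 122-base exon of Dus4l, a tRNA dihydrouridine synthase, at 100%, 100% and 100% in preMegE, against 19.8%, 13.8% and 45.3% in HSC. The 109-base exon of C1qtnf12 averaged 98.9 ± 1.87% in preMegE and 32.5 ± 13.2% in HSC, and lost its call without preMegE library 2 or 3 (adjusted p = 0.0548 and 0.0657). For Abcc5, Dus4l and C1qtnf12 the skipping transcript was annotated as a processed transcript, one with no reading frame, and with protein-coding and decay transcripts alone these exons could not be tested. Inclusion fell for exons outside the reading frame of Cenpt, a centromere protein (2.06 ± 3.57% in preMegE and 73.3 ± 6.51% in HSC), and Txnrd1, thioredoxin reductase (7.8 ± 5.1% in preMegE and 72.9 ± 9.86% in HSC); both calls were lost without preMegE library 2 or 3 (adjusted p = 0.0717 to 0.0888), and that of Txnrd1 also without library 1 (adjusted p = 0.0558).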

How the data were processed

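Total RNA was isolated with a column kit, amplified to cDNA with NuGEN's Ovation RNA-Seq System V2, then prepared for sequencing with its Ovation Ultralow System V2, per the labels' protocols. The authors deposited, for each library and transcript, the effective length, the TPM and the estimated count of reads, per the file headers. Per the submitters' processing notes, Salmon 0.12.0 was used and the builds were mm10 and GRCm38.p6. The transcript index was not given in the sources used here, like the run options. The deposited estimated counts are not whole, since reads that fit several transcripts are divided among them.

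Of 136288 transcripts, 136176 matched GENCODE M21 by identifier. Estimated counts were summed per gene and rounded to whole numbers. The 6 libraries were fitted with edgeR 4.0.16 in R 4.3.3 (quasi-likelihood, robust, TMM factors, filterByExpr, 4 residual degrees of freedom), with Benjamini-Hochberg adjustment over all genes tested and calls below 0.05. CPM are on TMM-scaled library sizes. SE is the absolute log2 fold change over the square root of F. Folds against a group with 0 reads use a floor of 3 reads over the group, and intervals for 1 to 3 reads are exact 95% binomial; both cover counting error only. Transcript usage was tested with diffSpliceDGE for transcripts with at least 5% of their gene's TPM, and percent spliced in with limma 3.58.1 on the logit scale (offset 0.01, at least 5 TPM, means from 2 to 98%). DESeq2 1.42.0 was an alternative. The steps were tested on simulated data.

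The 41 gene lists hold 1491 entries, of which 1484 matched a gene. The libraries compared, the lists and the rules were chosen with earlier results of these data known. Named genes are the markers, the sort genes, the 12 largest rises and falls among called protein-coding genes of at least 20 CPM without overlap, 4 each among noncoding genes, up to 3 rises, 3 falls and the member with the highest mean CPM of each list, and the largest changes of transcripts (8) and exons (6 each way, at least 10 TPM spanning the exon); a few of these genes are not reported here.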

Additional observations from a re-analysis of the deposited data

How the results depend on the processing

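Counts of genes higher in preMegE ranged from 4388 to 5369 and of genes lower from 4300 to 6159 when 1 library was left out; counts of at least 2-fold changes ranged from 2429 to 3092 higher and from 3983 to 5621 lower. With TMM factors from abundant protein-coding genes 2603 were higher, 1052 of them at least 2-fold; among genes of at least 20 CPM 4119 were higher, 1920 of them at least 2-fold, and 1007 lower, 575 of them at least 2-fold. DESeq2's and RLE size factors moved the median by 0.12 and length-scaled counts by 0.14. Genes with changed transcript usage numbered 3261 with limma on logit shares, 748 without retained-intron transcripts and 618 to 1917 with 1 library left out, the low counts being without preMegE library 1 (802), 2 (618) or 3 (630). Exons with higher inclusion numbered 217 with a logit offset of 0.05, 88 with protein-coding and decay transcripts alone, 415 with all 18 libraries in the fit and 39 to 218 with 1 library left out; exons with lower inclusion numbered 484 with all 18 libraries and 64 to 249 with 1 left out. The retained-intron difference ranged from -6.33 to -5.87 points with 1 library left out and was -9.25 points by TPM. Same-numbered libraries did not deviate together (correlations of 0, -0.01 and -0.06), so the numbers were not taken as pairs; with the replicate number as a block, 5076 genes were higher and 5443 lower, 847 genes changed usage and 0 exons were called in either direction by limma (573 and 692 at an unadjusted p below 0.05, up and down). Of 257 named genes, 256 were called, and 216 kept the call under every setting run. Log2 fold changes reversed for Angpt1 (0.11, 0.10, 0.00, 0.04, 0.22, 0.01, 0.09, 0.02, 0.03), which was not called; with length-scaled counts for Nfia (0.34), Kit (-0.04), Sc5d (0.08) and H2-Q7 (0.22); without retained-intron transcripts for Ppox (1.79) and H2-Q7 (1.66); and with abundant-gene factors for Txnip (-0.11) and Mki67 (-0.10). The cause was not tested. Genes under about 10 CPM in HSC are the least certain falls, since background reads reach that level there.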
